A study of Mus musculus with 7 samples.

Results

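The matrix metalloproteinases (Mmp), the Adamts proteases and the tissue inhibitors of metalloproteinases (Timp) were examined in mouse ileum and colon, in mice lacking Atg4b and in wild-type mice, with and without chemically induced colitis. The members were taken by gene symbol from the probe annotation, with Mmp7 left out, which gave 43 of the 19938 genes measured. They comprised 21 Mmp, 4 Timp and 18 Adamts genes. Total RNA was hybridised to 7 one-colour Affymetrix arrays. Colon after dextran sulfate sodium (DSS), a compound given by mouth that injures the colonic epithelium, was represented by 2 arrays from Atg4b knockout (KO) mice and 1 from a wild-type (WT) mouse. These mice had DSS for 7 days and then water for 3 days. Untreated ileum and untreated colon, called control here, gave 1 KO and 1 WT array each. All mice were 3 months old and of the mixed strain C57Bl6/129Sv. Atg4b encodes a protease that processes the LC3 and GABARAP proteins of autophagosomes, and the labels name no tissue to which the knockout was limited.

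Metalloproteinases of these families are zinc enzymes that cut proteins of the extracellular matrix and of the cell surface. Most Mmp proteins are secreted as inactive precursors and become active once their propeptide is removed. Adamts proteins are secreted enzymes that carry thrombospondin repeats and include cleavers of the proteoglycans aggrecan and versican, processors of fibrillar procollagens and the protease of von Willebrand factor. Timp proteins bind the active site of these enzymes and block it. In the injured gut, several Mmp genes are known as products of fibroblasts, epithelium at wound edges, macrophages and neutrophils.

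Array medians of the deposited probe-set intensity lay between 121.4 and 126.45. Atg4b had log2 intensities of 5.39, 5.39, 5.45 and 5.39 on the KO arrays and of 7.59, 7.35 and 7.72 on the WT arrays, so it followed the labels. The sex markers did not: Xist was at 12.16 to 12.55 on the 3 DSS arrays and at 5.19 to 5.52 on the 4 control arrays, while the Y-linked Eif2s3y was at 4.28 to 4.39 on DSS arrays and at 9.39 to 9.77 on control arrays. DSS and the sex shown by these markers therefore cannot be told apart in any result below, whereas the KO and WT arrays of a condition matched in these markers. The labelled sex was contradicted on the 3 WT arrays. Ileum and colon arrays held the markers of their labelled tissue, with a mean log2 intensity of 6 ileal genes of 11.56 (KO) and 11.42 (WT) in ileum and at most 5.80 on the 5 colon arrays. The mean of 5 colon genes was 9.34 to 9.79 in DSS colon, against 10.81 to 11.22 in control colon and 5.99 to 6.67 in ileum. Of these 5, Aqp8 (-0.96 ± 0.16) and the position markers Hoxd10 (-2.35 ± 0.31) and Hoxd11 (-1.71 ± 0.26) were lower in DSS than in control colon, and their part in the members' DSS values was not tested. Separate animals are not stated in the labels, and a p-value given here thus covers the spread among the arrays, which may be technical.

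Among the members, 17 varied by more than 1 log2 unit over the 7 arrays, against 18% of all genes. Another 22 members stayed within 0.6 log2 units, against 59% of all genes. Of the 18 Adamts genes 12 were in that narrow class, and so were Mmp1a, Mmp1b, Mmp11, Mmp12, Mmp17, Mmp20, Mmp21, Mmp23, Mmp24 and Mmp27. For Adamts3 and Adamts17 this held on the probe set used but not on every other. Another probe set of Adamts3 ran from 4.93 in KO control colon to 6.22 in KO DSS colon (replicate 2). Another of Adamts17 ran from 6.38 in WT DSS colon to 7.45 in WT ileum. The values of Mmp1a, Mmp1b, Mmp20, Mmp21, Mmp27 and Adamts20 were under the first quartile of gene values on each of the arrays, where a difference may go unseen or be understated.

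In DSS colon, the collagenases Mmp13 and Mmp8, the stromelysins Mmp10 and Mmp3 and the gelatinase Mmp9 rose together with the inhibitor Timp1, and the inhibitor Timp4 fell. Against control colon (3 DSS against 2 control arrays), 9 members rose and 1 fell at an adjusted p under 0.05 in limma, which is 23.3% of the members. Of all genes 10.6% passed, made up of 7.2% that were higher and 3.43% that were lower. The median difference was 0.02 over the members and -0.01 over all genes. The plot of both comparisons by role shows most members close to 0 and a few far from it.

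**Figure D1:**
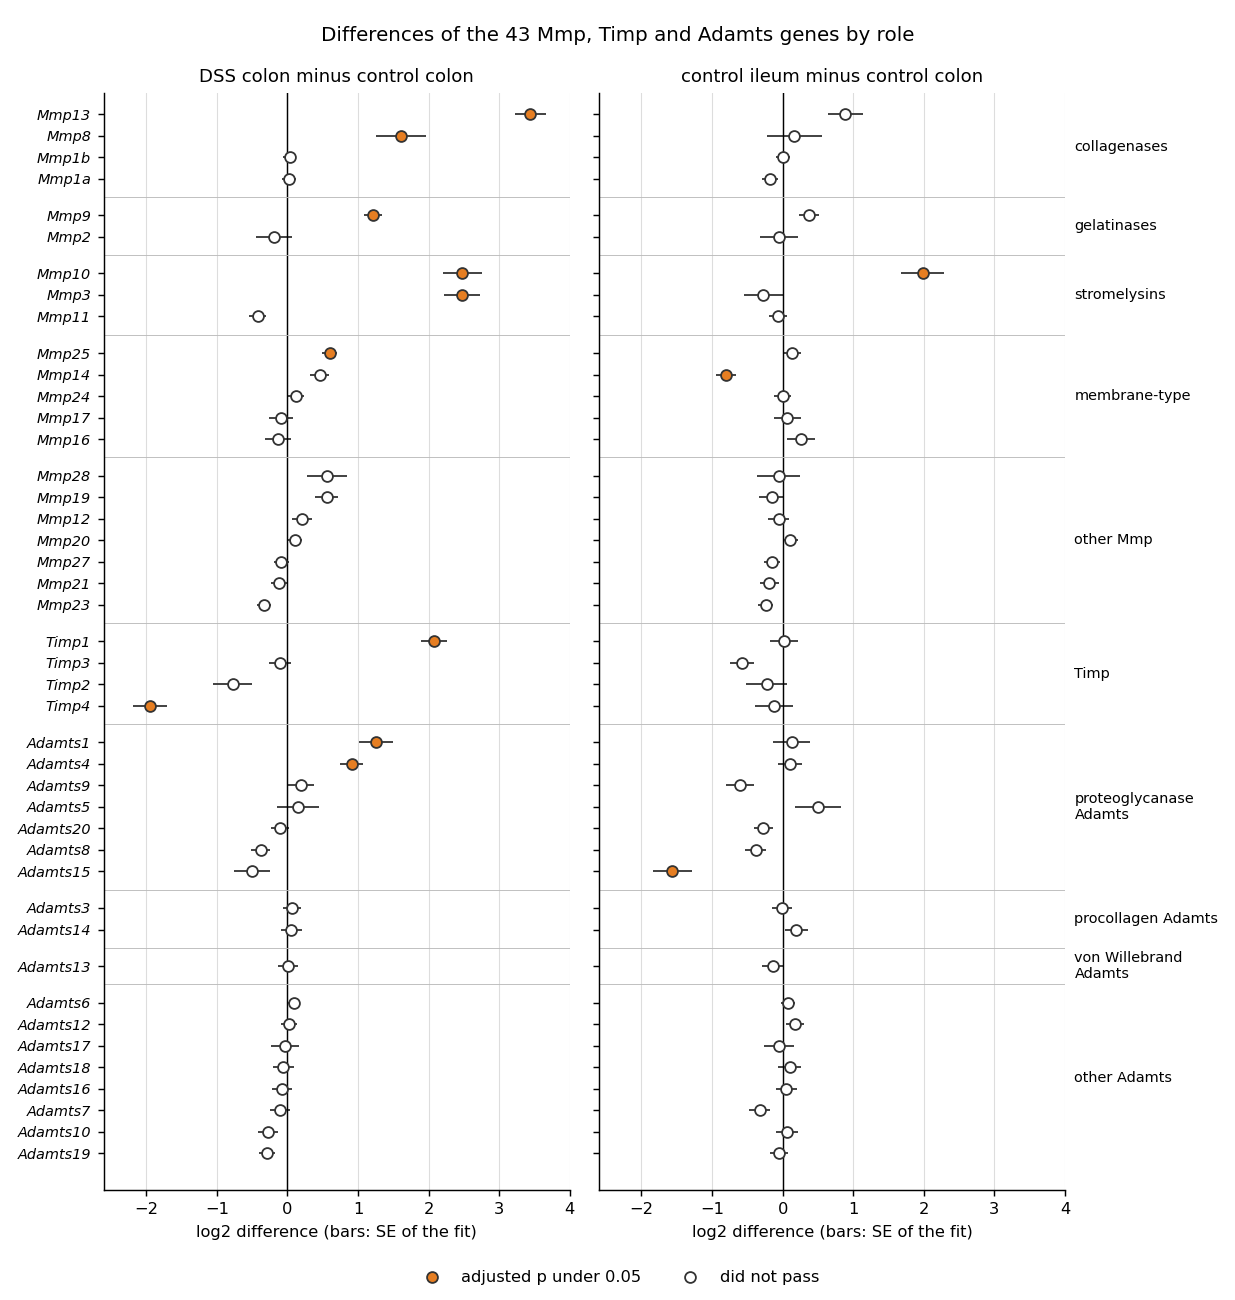
Log2 differences of the 43 genes, grouped by role, for DSS colon minus control colon (left) and control ileum minus control colon (right). Points are the fitted differences, bars the standard error of the fit and filled points those past an adjusted p of 0.05: 10 genes on the left, from Mmp13 at 3.44 to Timp4 at -1.95, and 3 on the right.

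The collagenases, which cut the triple helix of fibrillar collagen, differed among themselves. Mmp13, the main interstitial collagenase of rodents, had log2 intensities of 9.78 and 9.74 in KO and 10.23 in WT DSS colon, against 6.44 in KO and 6.51 in WT control colon. All 3 DSS values lay far above both control values. The difference was 3.44 ± 0.23 log2 units (SE of the fit), or 10.9-fold (adjusted p = 0.00118). Mmp8, the collagenase stored in neutrophil granules, had 5.39 and 6.70 in KO and 5.85 in WT DSS colon, against 4.39 in KO and 4.35 in WT control colon. The KO pair spanned the widest gap of any member between those replicates, 1.31 log2 units. The control values and the 5.39 of KO DSS colon were under the first quartile of gene values on their arrays. The difference of 1.61 ± 0.36 (adjusted p = 0.0391) thus rests in part on values at the low end of the signal, and may be understated. Mmp1a and Mmp1b stayed at 4.61 to 4.65 and 4.13 to 4.17 in DSS colon, against 4.55 to 4.66 and 4.10 to 4.15 in control colon. The groups overlapped for both of these genes.

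Of the stromelysins, which cut proteoglycans, laminin and other matrix proteins and activate other Mmp precursors, Mmp10 and Mmp3 rose. Mmp10 had 8.60 and 8.95 in KO and 9.25 in WT DSS colon, against 6.43 in KO and 6.47 in WT control colon, a difference of 2.48 ± 0.28 (adjusted p = 0.00543). Mmp3 had 8.66 and 7.83 in KO and 8.58 in WT DSS colon, against 5.98 in KO and 5.82 in WT control colon, a difference of 2.47 ± 0.26 (adjusted p = 0.0043). Neither gene's DSS values came near its control values. Mmp11, grouped with them by name but known as a stromal enzyme that is activated inside the cell, stood at -0.42 ± 0.11 and did not pass (adjusted p = 0.0672).

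The gelatinases, which degrade denatured collagen and collagen IV of basement membranes, separated. Mmp9, made by neutrophils and macrophages among others, had 7.36 and 7.39 in KO and 7.63 in WT DSS colon, against 6.35 in KO and 6.16 in WT control colon. The groups did not overlap, and the difference was 1.21 ± 0.13 (adjusted p = 0.00462). Mmp2, the gelatinase of fibroblasts, had 9.55 and 9.18 in KO and 8.83 in WT DSS colon, against 9.25 in KO and 9.34 in WT control colon. Its DSS values lay on both sides of the control values. Among the 5 membrane-anchored enzymes measured, Mmp25, known from leukocytes, rose by 0.60 ± 0.11 (adjusted p = 0.0238), with 6.44 and 6.38 in KO and 6.63 in WT DSS colon, against 5.88 in KO and 5.93 in WT control colon. Mmp14, the cell-surface activator of the Mmp2 precursor, stood at 0.46 ± 0.13 and did not pass (adjusted p = 0.0847), although its 10.05, 10.02 and 10.04 in DSS colon were above the 9.46 and 9.71 of control colon.

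The means of neutrophil and macrophage markers were also higher in DSS colon than in control colon. The mean log2 intensity of 8 neutrophil markers was 8.23 and 8.62 in KO and 8.73 in WT DSS colon, against 6.54 in KO and 6.39 in WT control colon, and 7 of the 8 rose. The marker that did not pass, Ly6g (0.39 ± 0.14), was at 12.48 in KO and 12.50 in WT control colon. In ileum Ly6g was at 4.95 in KO and 5.11 in WT, and its high colon level raised the colon means. The mean log2 intensity of 8 macrophage markers was 8.17 and 8.29 in KO and 8.21 in WT DSS colon, against 7.43 in KO and 7.34 in WT control colon, and 5 of the 8 rose. The macrophage mean was also 8.32 in KO and 7.83 in WT control ileum, where Mmp8, Mmp9 and Mmp25 did not pass against control colon. Mmp12, the elastase of macrophages, stood at 0.21 ± 0.14 and did not pass. The part of these cells in the changes of Mmp8, Mmp9 and Mmp25 was not tested, and in whole tissue more cells of a type and more RNA per cell cannot be told apart.

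None of the 7 Mmp genes outside these classes, Mmp12 included, passed in DSS colon. Mmp19, a broad-range secreted enzyme, had 7.66 and 7.49 in KO and 7.10 in WT DSS colon, against 6.75 in KO and 6.87 in WT control colon, a difference of 0.55 ± 0.17 that did not pass (adjusted p = 0.0911). Mmp28, also called epilysin for its expression in epithelia, had 7.93 and 7.07 in KO and 8.10 in WT DSS colon, against 7.21 in KO and 7.23 in WT control colon. KO replicate 2 was below the controls and the other DSS arrays above them, and the difference of 0.56 ± 0.28 did not pass (adjusted p = 0.273).

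Of the 4 inhibitors 1 rose, 1 fell and 2 did not pass. Timp1, an inducible secreted inhibitor, had 8.47 and 7.95 in KO and 8.10 in WT DSS colon, against 6.06 in KO and 6.17 in WT control colon. It rose by 2.07 ± 0.19, or 4.21-fold (adjusted p = 0.00308), without overlap. Timp1 is on the X chromosome, and the DSS arrays carried the female marker pattern. Timp4, an inhibitor known from heart, muscle and fat, had 5.67 and 5.94 in KO and 6.19 in WT DSS colon, against 7.72 in KO and 8.06 in WT control colon. It fell by 1.95 ± 0.25 on the log2 scale (adjusted p = 0.00804), again without overlap. The 5.67 of Timp4 lay under the first quartile of gene values on that array, so the fall may be understated. Timp2, which also takes part in the activation of the Mmp2 precursor on the cell surface, had 9.30 and 8.61 in KO and 8.11 in WT DSS colon, against 9.35 in KO and 9.34 in WT control colon. Its difference of -0.78 ± 0.27 did not pass (adjusted p = 0.13), with KO replicate 1 close to the controls and the WT array far below them. Timp3, the inhibitor bound to the matrix, had 10.29, 10.49 and 10.28 in DSS colon and 10.49 and 10.32 in control colon, and the groups overlapped.

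The mean log2 intensity of 12 smooth muscle markers was also lower in DSS colon, at 10.23 and 9.34 in KO and 8.84 in WT DSS colon, against 10.70 in KO and 10.77 in WT control colon, and 4 of the 12 fell. From high to low, the 3 DSS arrays had the order KO replicate 1, KO replicate 2 and WT in this mean and in Timp2, and the opposite order in Timp4. The mean of 5 adipocyte markers was 7.24 and 6.44 in KO and 6.38 in WT DSS colon, against 6.50 in KO and 7.87 in WT control colon. The adipocyte mean and those of the fibroblast, endothelial and mesothelial markers had the muscle order too. That order was thus not particular to muscle, and the neutrophil mean had the opposite one. The part of muscle, fat or other cells in the inhibitor values was not tested.

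Of the 7 Adamts genes that cleave aggrecan or versican, Adamts1 and Adamts4 rose. Adamts1 had 8.31 and 8.15 in KO and 7.34 in WT DSS colon, against 6.50 in KO and 6.71 in WT control colon, a difference of 1.25 ± 0.24 (adjusted p = 0.0263). Both KO arrays were above the WT DSS array, which was itself above both controls. Adamts4 had 8.11 and 7.68 in KO and 7.43 in WT DSS colon, against 6.96 in KO and 6.60 in WT control colon, a difference of 0.91 ± 0.16 (adjusted p = 0.0206). Adamts5, Adamts8, Adamts9, Adamts15 and Adamts20 had values from -0.50 (Adamts15) to 0.19 (Adamts9) and did not pass. The 6 probe sets of Adamts9 disagreed in size, with differences of group means from 0.07 to 0.74 in DSS colon. Neither of the procollagen processing enzymes measured, Adamts3 and Adamts14, passed, nor did Adamts13, the protease of von Willebrand factor, with differences of 0.07, 0.05 and 0.01. The 16 probe sets of Adamts3 disagreed too, with differences of group means from -0.07 to 0.72 in DSS colon, most of them positive. The probe set used, that with the highest mean, had 0.09. The 8 other Adamts genes had differences from -0.29 (Adamts19) to 0.09 (Adamts6), and none passed.

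**Figure D2:**
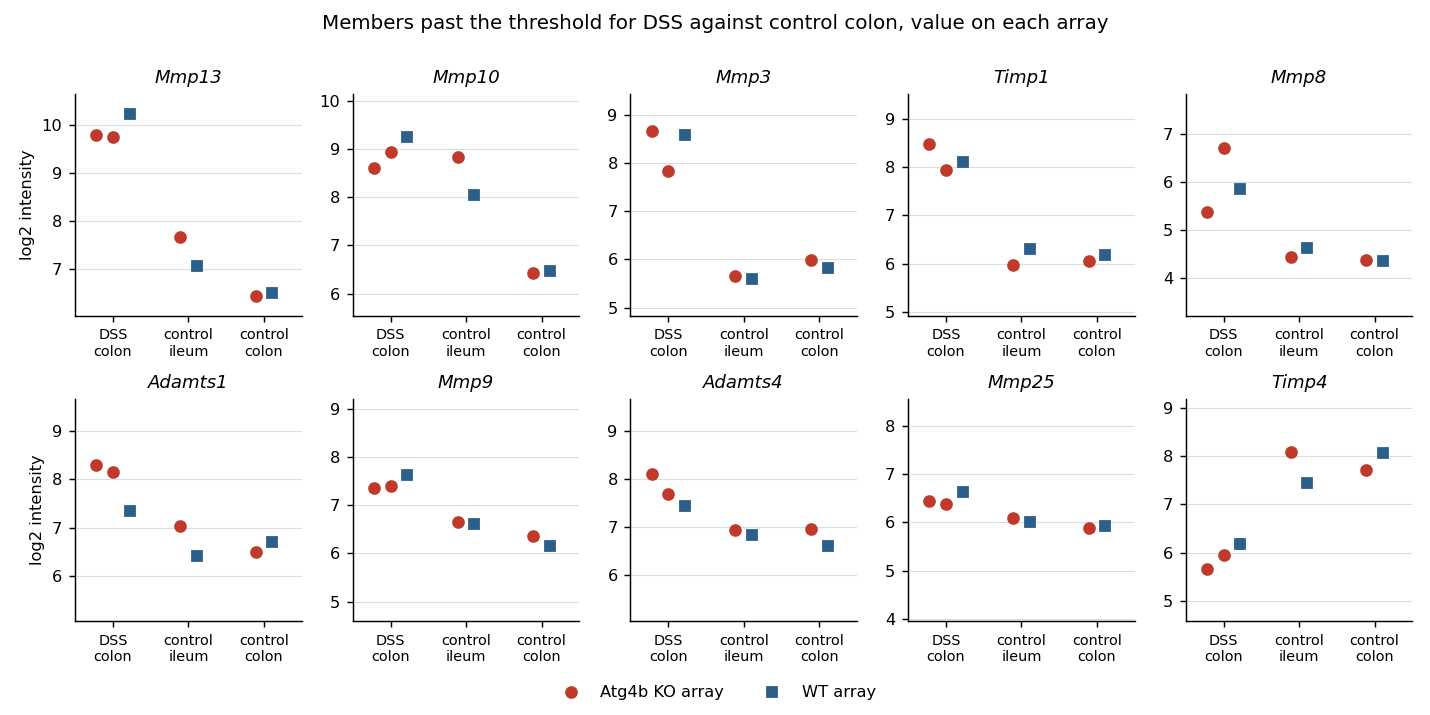
Log2 intensity on each of the 7 arrays for the 10 members that passed in DSS against control colon, with KO arrays as circles and WT arrays as squares, and with the same height of scale in every panel. For each gene the 3 DSS colon arrays lie on the same side of both control colon arrays, above them for 9 genes and below them for Timp4, while Mmp10 is also high in control ileum (8.83 in KO and 8.04 in WT).

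The count of members past the threshold rested on both control colon arrays. Without the KO control colon only Mmp13 and Mmp9 passed, and without the WT control colon only Mmp13 and Adamts1. The difference of Adamts1 was 0.71 in the first case and 1.70 in the second. Calls over all genes fell as well, to 183 without the KO and 216 without the WT control colon, against 2120 with all arrays. The differences of the other members that rose or fell stayed within 1.5 times their value with all arrays: without the KO and without the WT control colon, Mmp10 had 2.42 and 2.53, Mmp3 had 2.65 and 2.32, and Timp1 had 2.06 and 2.09. Mmp8 passed in 4 of the 15 alternatives that included it. The arrays did not overlap for 13 members that were higher and 7 that were lower in DSS colon, against 22.1% and 18% of all genes.

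The collagenase and stromelysin genes that rose lie in a single gene cluster. Mmp13, Mmp12, Mmp1b, Mmp3, Mmp1a, Mmp10, Mmp8, Mmp27 and Mmp20 follow each other in this order on chromosome 9 in the RefSeq annotation of GRCm38.p6. Of these 9 genes 4 rose in DSS colon, against 7.2% of all genes, and 5 did not pass. The genes that rose were interspersed with the others. Mmp13, at one end, had 3.44, its neighbours Mmp12 and Mmp1b had 0.21 ± 0.14 and 0.03 ± 0.09, and the next gene Mmp3 had 2.47. Mmp1a had 0.02 ± 0.10, Mmp10 and Mmp8 had 2.48 and 1.61, and Mmp27 and Mmp20 had -0.09 ± 0.11 and 0.11 ± 0.10. Mmp1a, Mmp1b, Mmp27 and Mmp20 are among the genes under the first quartile on all arrays, so a rise of these genes may have gone unseen.

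Promoter windows were available from RefSeq (GRCm38.p6) for 29 of the 43 members, as 31 windows of 250 bases before to 50 after an annotated start. Those of 7 cluster genes are shown because 6 of them share letters near a start although only 3 of these 6 rose in DSS colon. The search used TGAGTCA, the binding sequence of the AP-1 transcription factors (Fos and Jun proteins), and TATAAA, the letters of a TATA box. Both strands were searched, and no match of one overlapped a match of the other. AP-1 letters stood in 6 member windows, those of Mmp13, Mmp12, Mmp1b, Mmp3, Mmp1a and Mmp10, and in 5.2% of all 32851 windows. TATAAA stood in 10 member windows and in 13.6% of all windows. In the lines below, from 120 bases before to 20 after the start, capitals mark these matches (AP-1 nearer the left end, TATAAA to its right). In Mmp8, which has no AP-1 match, they mark the TATAAA letters on the opposite strand.
Mmp13, chr9:7272394-7272533, plus strand: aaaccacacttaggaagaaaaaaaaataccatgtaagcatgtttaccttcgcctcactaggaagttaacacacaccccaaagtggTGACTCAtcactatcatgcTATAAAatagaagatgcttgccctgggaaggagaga
Mmp3, chr9:7445702-7445841, plus strand: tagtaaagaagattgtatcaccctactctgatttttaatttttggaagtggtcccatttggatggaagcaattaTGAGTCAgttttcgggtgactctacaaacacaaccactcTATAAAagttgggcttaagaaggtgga
Mmp10, chr9:7502222-7502361, plus strand: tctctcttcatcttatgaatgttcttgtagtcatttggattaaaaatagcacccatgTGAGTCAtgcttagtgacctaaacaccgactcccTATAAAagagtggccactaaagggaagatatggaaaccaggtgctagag
Mmp8, chr9:7558309-7558448, plus strand: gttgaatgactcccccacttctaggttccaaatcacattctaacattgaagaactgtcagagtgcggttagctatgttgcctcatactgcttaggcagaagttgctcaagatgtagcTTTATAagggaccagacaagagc
Mmp12, chr9:7347254-7347393, plus strand: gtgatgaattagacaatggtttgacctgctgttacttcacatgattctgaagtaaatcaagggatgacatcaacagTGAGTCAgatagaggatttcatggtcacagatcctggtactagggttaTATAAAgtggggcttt
Mmp1b, chr9:7388007-7388146, minus strand: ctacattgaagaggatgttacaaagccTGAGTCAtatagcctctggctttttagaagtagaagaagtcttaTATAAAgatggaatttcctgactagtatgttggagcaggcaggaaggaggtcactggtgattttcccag
Mmp1a, chr9:7464021-7464160, plus strand: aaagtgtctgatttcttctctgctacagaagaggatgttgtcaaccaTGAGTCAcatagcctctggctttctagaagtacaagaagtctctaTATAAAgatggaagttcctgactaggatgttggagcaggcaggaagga
The AP-1 match began 35 bases before the start in Mmp13 (on the opposite strand), 46 in Mmp3, 63 in Mmp10, 44 in Mmp12, 93 in Mmp1b and 73 in Mmp1a. The first 3 of these genes rose in DSS colon and the other 3 did not pass. Mmp8 rose without AP-1 letters in its window. Mmp12 has 2 windows, and that at its other start holds neither motif; Mmp27 holds neither, and Mmp20 holds TATAAA alone. In the windows shown, TATAAA began 16 bases before the start in Mmp13, 7 in Mmp3, 29 in Mmp10, 49 in Mmp1b and 28 in Mmp1a. In Mmp12 it began 4 bases after the start, and in Mmp8 the opposite-strand match began 3 before it. Whether these letters serve as a TATA box was not tested. A match describes the letters only, and binding was not measured here.

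**Figure D3:**
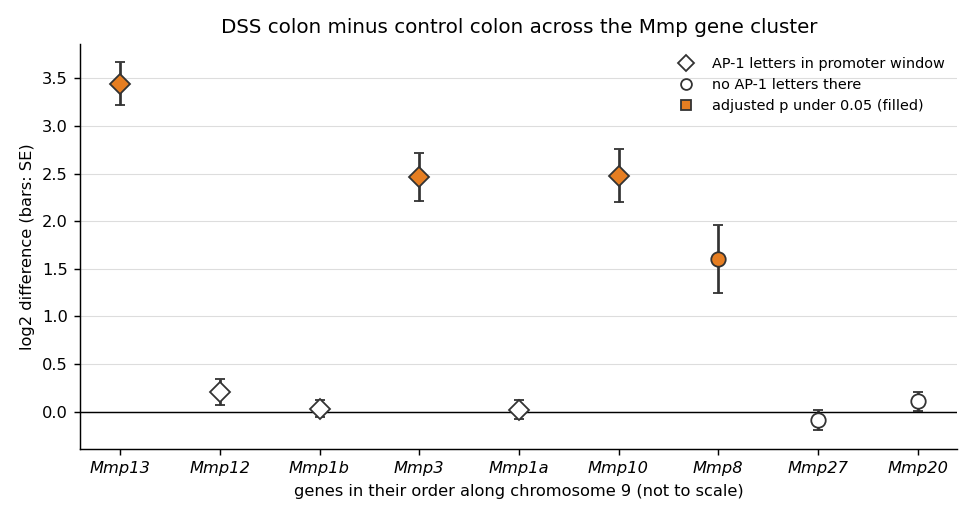
Log2 difference of DSS colon minus control colon (bars, SE) for the 9 cluster genes in their order along chromosome 9. Diamonds have AP-1 letters in the promoter window and circles have none; filled symbols passed an adjusted p of 0.05, namely Mmp13, Mmp3 and Mmp10 among the diamonds and Mmp8 among the circles.

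Genes that act around these enzymes were counted from lists drawn up with earlier results of these data known. The lists are small, and of all genes 7.2% rose and 3.43% fell in DSS colon. Of 15 cytokine and transcription factor genes known as inducers of Mmp expression, 6 rose in DSS colon and none fell, with Il1b at 4.73 ± 0.17 and Il1a at 4.65 ± 0.51. The AP-1 subunit gene Fosl1, in that list, had 7.98 and 7.69 in KO and 7.92 in WT DSS colon, against 6.93 in KO and 7.27 in WT control colon, and rose by 0.78 ± 0.16. The other AP-1 subunit genes of the list, Jun, Junb, Fos, Fosb and Fosl2, did not pass. Their differences ran from -0.06 (Jun) to 0.35 (Junb). The control colon arrays disagreed for Fosb, at 7.10 in KO and 8.79 in WT, and for Fos, at 8.49 in KO and 9.29 in WT. The Fosb values in DSS colon, 7.98 and 7.88 in KO and 7.95 in WT, lay between its control values. Of 11 activators 2 rose, the urokinase receptor gene Plaur (2.07 ± 0.11) and the proprotein convertase gene Pcsk5 (1.44 ± 0.28). Of 7 other inhibitors or inhibitor-like genes 2 fell, Wfdc2 (-1.23 ± 0.22) and the Kunitz inhibitor gene Tfpi2 (-0.49 ± 0.10). Of 9 Adam-family genes 2 rose, Adam8 (0.98 ± 0.18) and Adam10 (0.43 ± 0.11), and Adam19 fell by 0.43 ± 0.10. Of 7 genes listed as binding partners 1 rose, the lipocalin gene Lcn2 (3.56 ± 0.28). Of the 17 matrix substrates, the collagens, fibronectin and versican among them, none passed in DSS colon (list median 0.01). Fibronectin (Fn1) stood at -0.98 ± 0.25 (adjusted p = 0.0561) and the laminin gene Lama5 at 0.47 ± 0.14 (adjusted p = 0.0854). Fn1 had 11.47 and 10.88 in KO and 10.16 in WT DSS colon, against 11.77 in KO and 11.64 in WT control colon. None of the 6 Adamts-like genes passed.

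In control ileum Mmp10 was higher and Mmp14 and Adamts15 were lower than in control colon (2 against 2 arrays). These 3 were 6.98% of the members, no more than the 9.16% of all genes that passed, made up of 5.94% that were higher and 3.22% that were lower. The medians of the differences were -0.05 over the members and -0.02 over all genes. Mmp10 had 8.83 in KO and 8.04 in WT ileum, against 6.43 in KO and 6.47 in WT colon, a difference of 1.98 ± 0.30 (adjusted p = 0.0105). Mmp14 had 8.92 in KO and 8.64 in WT ileum, against 9.46 in KO and 9.71 in WT colon (-0.80 ± 0.15, adjusted p = 0.0198). Adamts15 had 6.63 in KO and 6.64 in WT ileum, against 7.80 in KO and 8.60 in WT colon (-1.56 ± 0.28, adjusted p = 0.0177). The arrays of the tissues did not overlap for any of the 3, nor for 12 members in all that were higher and 13 that were lower in ileum, against 25.8% and 28.2% of all genes. None of the 3 passed without the KO control colon or without the WT control colon.

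Markers of other cells differed too: 3 of 5 adipocyte, 2 of 8 macrophage and 2 of 7 epithelial markers were higher in ileum, and none of the 9 fibroblast or 12 smooth muscle markers passed. The mean of the adipocyte markers was 8.86 in KO and 9.07 in WT ileum, against 6.50 in KO and 7.87 in WT colon, and the part of these cells in the members' values was not tested.

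Mmp13 was also above colon on both ileum arrays, with 7.66 in KO and 7.07 in WT ileum, against 6.44 in KO and 6.51 in WT colon, but its difference of 0.89 ± 0.25 did not pass (adjusted p = 0.0831). Mmp3, another gene of the cluster, had 5.66 in KO and 5.60 in WT ileum, against 5.98 in KO and 5.82 in WT colon, and stood at -0.27 ± 0.28. Both ileum values of Mmp3 were under the first quartile of gene values on their arrays, where a difference may be understated. Timp3 had 10.16 in KO and 9.51 in WT ileum, against 10.49 in KO and 10.32 in WT colon, and its difference of -0.58 ± 0.17 did not pass (adjusted p = 0.094). Adamts9, a versican-cleaving enzyme, had 7.83 in KO and 7.93 in WT ileum, against 8.42 in KO and 8.55 in WT colon (-0.60 ± 0.20, adjusted p = 0.132). All 6 probe sets of Adamts9 were lower in ileum, by 0.46 to 0.61 log2 units on average. Among its substrates versican (Vcan) was lower in ileum by 0.99 ± 0.18, with 7.36 in KO and 6.47 in WT ileum, against 8.08 in KO and 7.72 in WT colon. Pcsk5, the activator gene named above, was higher in ileum by 3.43 ± 0.30. The DSS and the ileum comparison share the control colon arrays.

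Between KO and WT no member passed, either across the 3 conditions (4 KO against 3 WT arrays) or in DSS colon (2 against 1). Over all genes 0.00502%, which is Atg4b alone, passed across conditions by limma, and 0% passed within DSS colon. Across conditions 2 members, Timp2 and Mmp2, had an unadjusted p under 0.05, and within DSS colon 1 did, Adamts1. Of the 19938 genes 720 and 776 did so in these comparisons, so the members' counts are near those of all genes. The DSS arrays of both genotypes stood far above the control of their genotype for Mmp13, Mmp10 and Timp1: the DSS minus control difference of Mmp13 was 3.34 and 3.29 on the KO arrays and 3.71 in WT, that of Mmp10 was 2.17 and 2.52 in KO and 2.78 in WT, and that of Timp1 was 2.41 and 1.89 in KO and 1.93 in WT. The interaction of genotype and DSS also passed for no member and for 0% of all genes, with -0.73 ± 0.29 for Mmp13, -0.85 ± 0.37 for Mmp10 and 0.68 ± 0.34 for Adamts1 (adjusted p = 1.000 each), and 1 member, Mmp13, was at an unadjusted p under 0.05, as were 639 of all genes. Without either control colon array these values were -1.06, -1.27 and 0.26, and without either ileum array they were -0.40, -0.44 and 1.10, in the same order of genes.

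Timp2 was the member with the widest fitted difference across conditions, at 0.61 ± 0.23 (adjusted p = 0.989). It had 9.57 in KO and 8.67 in WT ileum, and 9.35 in KO and 9.34 in WT control colon. Together with the DSS values above, every KO array was above the WT array of its condition, by as little as 0.01 in control colon. Mmp2 (0.50 ± 0.21, adjusted p = 0.989) had 9.77 in KO and 8.71 in WT ileum, the widest KO minus WT gap of any member in that tissue at 1.06, but 9.25 in KO and 9.34 in WT control colon. Of 9 fibroblast markers none passed for KO against WT across conditions or within DSS colon. Their mean log2 intensity was 9.58 in KO and 8.97 in WT ileum, 9.76 and 9.33 in KO and 8.75 in WT DSS colon, and 9.44 in KO and 9.26 in WT control colon. It was thus higher on each KO array than on the WT array of its condition, whereas in control colon Mmp2 was lower in KO. Their part in the values of Timp2 and Mmp2 was not tested.

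In DSS colon the widest KO minus WT differences were 0.89 ± 0.26 for Adamts1, 0.85 ± 0.36 for Timp2, 0.66 ± 0.33 for Adamts5 and -0.60 ± 0.39 for Mmp28 (adjusted p = 1.000 each). Adamts1 had 8.31 and 8.15 in KO against 7.34 in WT, so that both KO arrays were higher, and the KO pair was only 0.16 apart. In ileum it had 7.04 in KO and 6.42 in WT, but in control colon 6.50 in KO and 6.71 in WT. For Timp2 and Mmp28 the KO pair was wider, 0.69 and 0.86 apart. Adamts5, an aggrecanase named here after its values were seen, had 6.90 and 6.10 in KO against 5.84 in WT DSS colon. Without KO replicate 2, when 1 KO array is set against 1 WT array and the spread comes from the control arrays alone, it passed together with Timp2, whose KO minus WT difference within DSS colon was then 1.20 (adjusted p = 0.0451). Without KO replicate 1 no member passed.

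Over the whole family, every KO array was above the WT array of its condition for Adamts4, Mmp23, Timp2 and Timp3, and below it for Adamts15, Mmp1b and Mmp28. These are 4 and 3 of 43 members, against 5.87% and 9.5% of all genes. For Adamts15 the gap was wide in control colon (7.80 in KO and 8.60 in WT) and 0.01 log2 units in ileum, and for Mmp28 it was -0.77 in ileum and -0.02 in control colon. In control colon 1 member, Adamts15, differed by more than 0.5 log2 units between KO and WT, in ileum 9 members did, and in DSS colon 6 did between the KO mean and WT. Over all genes those shares were 5.74%, 4.51% and 5.92%. The pair of KO DSS arrays themselves differed by more than 0.5 in 7 members, against 8.08% of all genes.

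**Figure D4:**
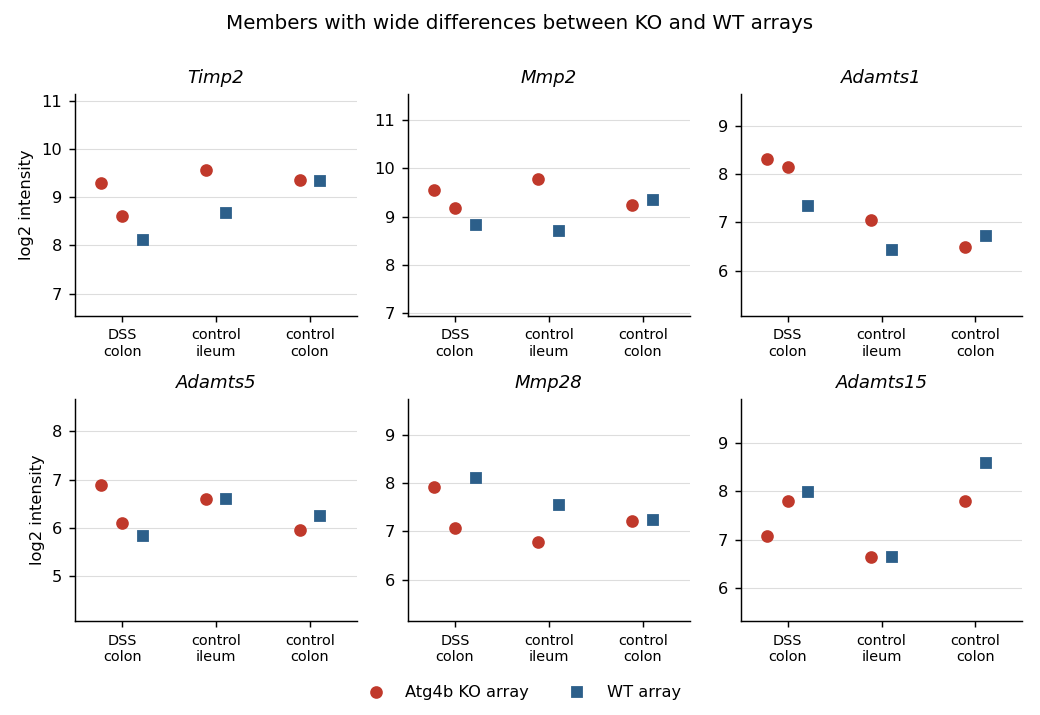
Log2 intensity on each of the 7 arrays for 6 members with wide gaps between KO arrays (circles) and WT arrays (squares) in at least 1 condition. The gaps differ by condition: Mmp2 and Timp2 separate in ileum and DSS colon and lie together in control colon, while Adamts15 separates in control colon and not in ileum.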

How the data were processed

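Biotin labelling followed an Affymetrix sense target protocol (per the labels' protocols), with 1 array per sample. The authors deposited 1 linear intensity per probe set and array, from 10.4 to 22236.4. The summary and normalization steps are not given in the sources used here. Since array medians were nearly equal, values were taken as normalized, and log2 was computed here. Of 35512 probe sets 21789 had 1 gene symbol in the platform annotation, 1621 several and 12102 none here. Those with 1 symbol were used, the highest mean per gene over all arrays (3 members had several). Adamts2, Mmp15 and Mmp7 were not analysed here.

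Models were fitted with limma 3.58.1 (lmFit, eBayes) in R 4.3.3 over all 19938 genes, with Benjamini-Hochberg adjustment over all of them. Condition plus genotype left 3 residual degrees of freedom. A second model with a genotype effect in DSS colon left 2. The number of arrays limits the precision. Members and lists were chosen with earlier results of these data known. Values on every array were given for members past the threshold and, per comparison, for the 3 others with the largest difference whose higher group mean exceeded the median of all values (7.33); further members were added to complete each role, after their values were seen. The scripts were tested on simulated data. Alternatives were other normalizations, filters, probe-set rules, variance models, labelled sex, a 6-group model, the colon arrays by themselves and the omission of each array in turn. Figures were drawn with matplotlib 3.10.9.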

Additional observations from a re-analysis of the deposited data

Results flagged for a closer look

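The KO minus WT difference had opposite signs in ileum and in control colon for 2 of the members named in the genotype comparisons. For Adamts1 it was 0.62 in ileum and -0.21 in control colon, which are 0.84 log2 units apart. For Mmp2 it was 1.06 in ileum and -0.09 in control colon, which are 1.16 apart. Each value compares 1 array with 1 array, so these differences between tissues were not tested.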

How the results depend on the processing

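The count of 10 members past the threshold in DSS against control colon was 7 to 13 under most alternatives, but 2 without the KO control colon, 2 without the WT control colon and 4 in a 6-group model, where only the 2 KO DSS arrays give residual spread. Leaving out each array in turn gave 2 to 13. In control ileum against control colon the count of 3 became 1 in the 6-group model and ranged from 0 to 4 when each array was left out. The count of 0 across conditions stayed 0 in all 15 alternatives. For KO against WT in DSS colon, leaving out each array gave 0 to 2, with 2 only without KO DSS replicate 2 (Timp2 and Adamts5). The interaction count was 0 throughout. No difference of the genes chosen by the naming rule changed sign in an alternative that gave a value. Mmp13 passed in DSS colon in all 16 alternatives (3.15 to 3.52) and Mmp9 in 15 of 16. Further members passed as lower: Mmp11 and Mmp23 under quantile normalization, Mmp11 with arrays centred on their median, and Mmp11, Adamts8 and Timp2 without KO DSS replicate 1. The genotype effect in DSS colon could not be fitted beside labelled sex, nor without the WT DSS array. No paired analysis was possible because only the KO DSS pair carries replicate numbers in the labels. Members under the first quartile lie at the low end of the signal, which limits what could be seen there. The causes were not tested.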
